A study of Mus musculus with 6 samples.

Results

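The BCL2 family genes described here are 10 genes taken by symbol: 3 anti-apoptotic members (Bcl2, Bcl2l1 and Mcl1), 2 effectors (Bax and Bak1) and 5 BH3-only members (Bcl2l11, Bid, Bbc3, Bik and Pmaip1). Each was found once among the 23154 Ensembl genes measured, and all 10 passed the filter on low counts that kept 12509 genes for testing. RNA-seq was done on C2C12 cells, an established mouse myoblast line that forms muscle fibres when serum is withdrawn. The 3 HA-NUR77 libraries came from a stable line carrying the pINDUCER20b-HA-NUR77 construct, from which doxycycline induces HA-tagged NUR77, and the 3 GFP libraries from a stable line carrying pINDUCER20b-GFP as the control. Both lines were given doxycycline at 1 µg/mL, 24 hours after seeding, for 18 hours, so the inducer is common to both groups. The labels name a single stable line for each construct, so a difference between the lines and an effect of the construct cannot be told apart, and p-values measure the spread between dishes. The growth text in the labels names the HA-NUR77 line for all 6 libraries, and the groups here follow the titles and the genetic modification given for each sample.

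BCL2 family proteins decide whether the outer membrane of mitochondria is breached during apoptosis. BAX and BAK form the pores, the anti-apoptotic proteins hold them in check, and the BH3-only proteins either activate the effectors directly or occupy the anti-apoptotic proteins and so release them. NUR77 (gene Nr4a1), an orphan nuclear receptor, is known both as a transcription factor and as a protein that can move to mitochondria, bind BCL2 and expose its killing surface. The data here are transcript counts and carry no information on where a protein sits or on how many cells died.

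Library totals ran from 13906096 to 22821446 counts. Nr4a1 itself had 19.4 to 25.5 CPM (reads of a gene per 1000000 library reads after TMM scaling) in the HA-NUR77 libraries and 13.5 to 28.2 CPM in the GFP libraries and did not pass the test (edgeR adjusted p = 0.698). Whether the insert is mouse or human is not stated in the labels, so Nr4a1 counts do not check the groups. All 5 myoblast markers examined were expressed, and Cdh15 of them rose 1.45-fold (edgeR adjusted p = 0.0054). The others did not pass and went both ways. Log2 fold changes, HA-NUR77 over GFP, were 0.37 for Myod1, 0.40 for Des, −0.23 for Myf5 and −0.28 for Pax7. The 4 adipocyte markers had no read. Macrophage markers summed to 2.44 to 3.88 CPM in HA-NUR77 and 1.60 to 3.04 CPM in GFP, with 3 reads of Ptprc in each group. Csf1r of these rose 3.28-fold, with 78 reads against 19 (edgeR adjusted p = 0.0443). Itgam, which was not tested, had 31 reads in HA-NUR77 against 44 in GFP. Lymphocyte, endothelial, bone or cartilage and epithelial markers each summed to at most 3.25 CPM in any library, and Cdh1, an epithelial marker, fell 2.34-fold (adjusted p = 0.0112). Markers of differentiated muscle summed to 12949 to 15584 CPM in HA-NUR77 and 8147 to 11960 CPM in GFP, and Myh3 and Myh8 of the 7 rose. The part of these markers' cell types and of muscle differentiation in the differences below was not tested.

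The family moved in both directions, also among the anti-apoptotic members and among the BH3-only members. In the HA-NUR77 libraries Bid rose 1.53-fold, Mcl1 1.26-fold and Bik 1.95-fold, while Bcl2l11, which encodes BIM, fell 1.65-fold and Bcl2 fell 1.41-fold. Bax and Pmaip1, which encodes NOXA, were 1.24-fold and 1.29-fold higher but just missed the threshold of 0.05 on the adjusted p, and Bcl2l1, Bak1 and Bbc3 were further from it. Thus 3 of the 10 members were higher and 2 lower by edgeR's quasi-likelihood test, which called 25.6% of all genes tested, 12.4% higher and 13.2% lower. The median log2 fold change was 0.12 over the 10 members and 0.01 over all genes tested. The groups did not overlap for 8 of the 10 members, against 45.6% of all genes tested. With so few members, these counts are a description of the list. Without HA-NUR77 replicate 1 or without GFP replicate 1, Bid was the 1 member called higher, and Bcl2 and Bcl2l11 were called lower as before.

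**Figure D1:**
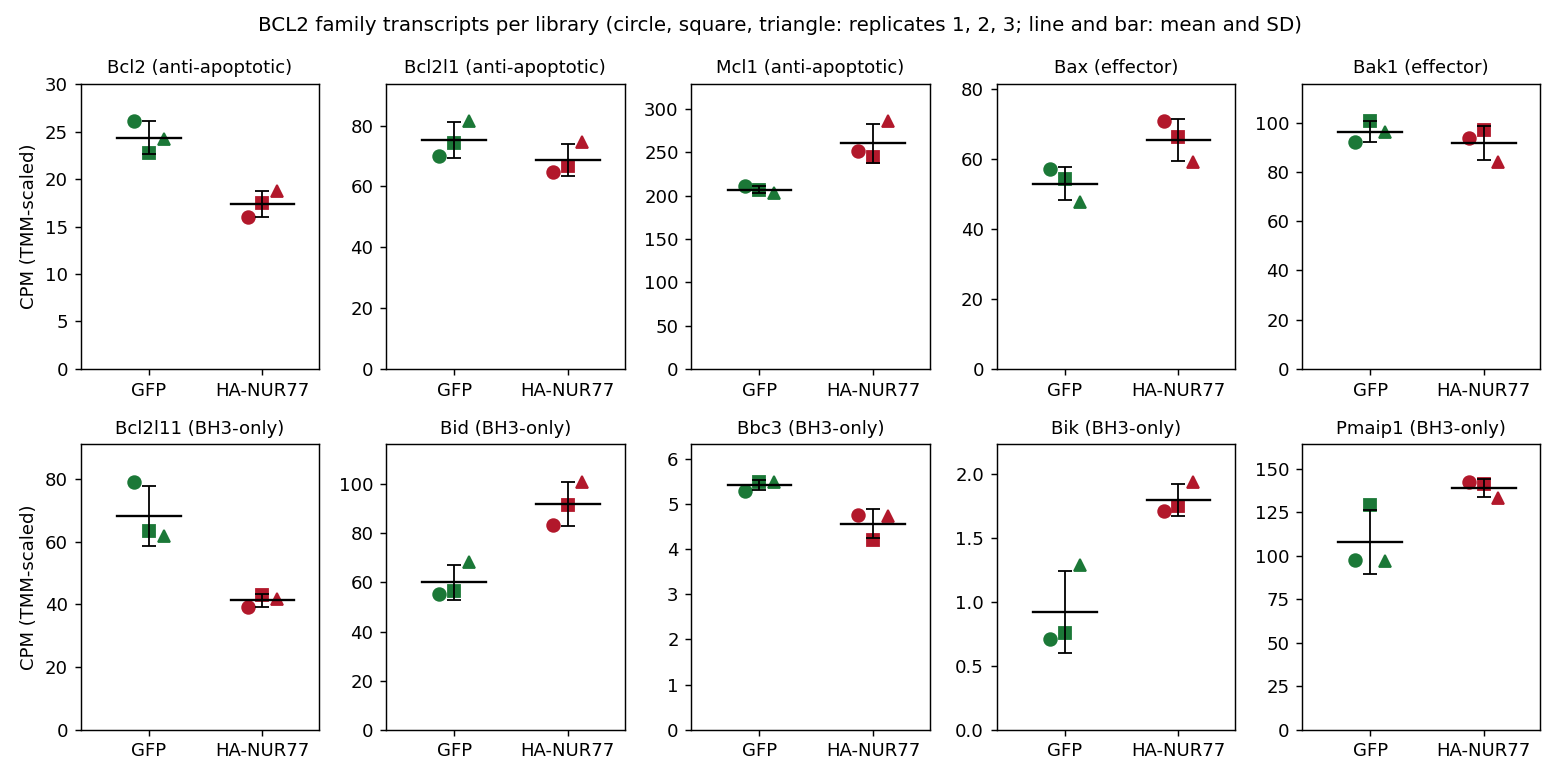
CPM of each BCL2 family member (vertical axis from 0, its own scale in each panel) in the 3 GFP libraries (green) and the 3 HA-NUR77 libraries (red), with the role of the gene in brackets; horizontal lines are means and bars are SD. Bid, Mcl1, Bik, Bax and Pmaip1 lie above the GFP libraries in every HA-NUR77 library, Bcl2, Bcl2l11 and Bbc3 below, and Bcl2l1 and Bak1 overlap.

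Same-numbered libraries of the 2 groups deviated together, so the test was repeated with replicate number added to the model. With the replicate block, Bax (log2 fold change 0.30, SE 0.06, edgeR adjusted p = 0.00103) and Pmaip1 (0.37, SE 0.08, adjusted p = 0.00268) were higher as well, which gives 5 members higher and 2 lower. That fit called 48.1% of all genes tested, 23.5% higher and 24.6% lower. Bid, Mcl1, Bik, Bcl2 and Bcl2l11 were past the threshold in both models and in the same direction.

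Among the anti-apoptotic members, the most abundant transcript rose and the least abundant fell; gene coordinates below are those of GENCODE M21 on GRCm38. Mcl1 (ENSMUSG00000038612, chr3:95658788-95663176) encodes a short-lived protein that restrains BAK and is held in check by NOXA. In replicate order 1, 2, 3, which is used for all values below, Mcl1 stood at 251, 244 and 286 CPM in HA-NUR77 and at 211, 207 and 203 CPM in GFP. The GFP values were close together and the HA-NUR77 values lay above all of them. The log2 fold change was 0.33 (SE 0.08, edgeR adjusted p = 0.0214). The edgeR adjusted p was 0.0589 and 0.053 when HA-NUR77 replicate 1 or 3 was left out, and 0.0618 and 0.064 when GFP replicate 1 or 2 was, while the log2 fold change stayed between 0.26 and 0.38.

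Bcl2 (ENSMUSG00000057329, chr1:106538178-106714274) encodes the founding member of the family, the protein that NUR77 is known to bind. It stood at 16.0, 17.5 and 18.7 CPM in HA-NUR77 and at 26.2, 22.7 and 24.3 CPM in GFP. Every HA-NUR77 library lay below every GFP library. Bcl2 fell by 0.49 on the log2 scale (SE 0.10, edgeR adjusted p = 0.0106), and it held in each fit that left out 1 library. An antisense gene, D630008O14Rik, shares 558 of the 9157 merged exon bases of Bcl2.

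Bcl2l1 (ENSMUSG00000007659, chr2:152780668-152831728), the gene for BCL-XL and its shorter splice form BCL-XS, overlapped between the groups. It stood at 64.6, 66.6 and 74.6 CPM in HA-NUR77 and at 69.9, 74.4 and 81.5 CPM in GFP. Its log2 fold change was −0.13 with a 95% interval of −0.34 to 0.07 (edgeR adjusted p = 0.277). A fall of more than 1.26-fold and a rise of more than 1.05-fold both lie outside that interval. The replicate block narrowed the interval to −0.26 to −0.01, still without passing (edgeR adjusted p = 0.0668). For Bcl2l1, the log2 ratios within replicate numbers 1, 2 and 3 were −0.11, −0.16 and −0.13. Counts per gene do not separate the splice forms of Bcl2l1, nor those of Mcl1 and Bcl2l11.

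Of the effectors, Bax was higher in all 3 HA-NUR77 libraries without passing the test and Bak1 overlapped. Bax (ENSMUSG00000003873, chr7:45461697-45466898), whose protein moves from the cytosol to mitochondria on activation, stood at 70.8, 66.1 and 59.1 CPM in HA-NUR77 and at 57.1, 54.1 and 47.6 CPM in GFP. Both groups spread over a similar range, and the lowest HA-NUR77 library was only just above the highest GFP library. The log2 fold change was 0.30 (SE 0.10, adjusted p = 0.0532 by edgeR). Bax passed without HA-NUR77 replicate 3 (adjusted p = 0.0415), with upper-quartile factors (0.043), without the low-count filter (0.0448) and after correcting for length and GC content (0.0356), but not by DESeq2 (0.0509) or limma-voom (0.0539). With any other single library left out, Bax did not pass by edgeR (adjusted p of 0.0767 to 0.179). For Bax, the log2 ratios within replicate numbers 1, 2 and 3 were 0.31, 0.29 and 0.31. Bak1 (ENSMUSG00000057789, chr17:27019810-27029009) encodes the effector that resides on the mitochondrial membrane. It stood at 93.8, 97.2 and 83.9 CPM in HA-NUR77 and at 92.1, 101 and 96.0 CPM in GFP, with a log2 fold change of −0.07 and a 95% interval of −0.25 to 0.11 (edgeR adjusted p = 0.526). The annotation places exons of Ggnbp1 on the opposite strand of Bak1, with 437 shared bases.

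The BH3-only members divided into Bid and Bik, which rose, Bcl2l11, which fell, and Pmaip1 and Bbc3, which did not pass. Bid (ENSMUSG00000004446, chr6:120891930-120916853) encodes the protein that caspase-8 cleaves, linking death receptors to mitochondria. It stood at 83.3, 91.7 and 101 CPM in HA-NUR77 and at 55.4, 56.4 and 68.1 CPM in GFP. The groups were well apart, and GFP replicate 3 was the highest of its group. Bid rose by 0.62 on the log2 scale (SE 0.11, edgeR adjusted p = 0.0071), and 15% of all genes tested had a larger absolute change. Bid shares 628 of its 3550 exon bases with Bcl2l13 on the opposite strand; Bcl2l13, another family gene, was 0.36 higher on the log2 scale (adjusted p = 0.0667). Whether counting used strand is not stated in the labels, so how reads from the shared stretch were assigned is not known.

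Bcl2l11 (ENSMUSG00000027381, chr2:128126038-128162547) encodes BIM, an activator of BAX and BAK that also binds all the anti-apoptotic proteins. It stood at 39.0, 43.1 and 41.6 CPM in HA-NUR77 and at 79.2, 63.4 and 62.0 CPM in GFP. The HA-NUR77 libraries were close together and GFP replicate 1 was the highest of all. Bcl2l11 fell by 0.73 on the log2 scale (SE 0.11, edgeR adjusted p = 0.00373), and its log2 fold change was −0.60 (adjusted p = 0.0079) without GFP replicate 1. It was past the threshold in every fit that left out 1 library.

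Bik (ENSMUSG00000016758, chr15:83526862-83544634), a BH3-only gene whose protein acts largely at the endoplasmic reticulum, was near the limit of detection. It had 33, 40 and 27 reads in HA-NUR77 and 12, 11 and 19 in GFP. These are 1.71, 1.75 and 1.94 CPM against 0.712, 0.755 and 1.29 CPM, with no overlap. The log2 fold change was 0.97 (SE 0.28, edgeR adjusted p = 0.0395) with a 95% interval of 1.24-fold to 3.07-fold. DESeq2 did not call it (adjusted p = 0.0708), and neither did edgeR without any of 5 of the libraries in turn, with adjusted p of 0.0769 to 0.138; without GFP replicate 3 the adjusted p was 0.0201.

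Pmaip1, the gene for NOXA, which binds MCL1 and speeds its breakdown, was high in every library. It stood at 143, 141 and 133 CPM in HA-NUR77 and at 97.6, 129 and 97.2 CPM in GFP. GFP replicate 2 lay near the HA-NUR77 libraries and apart from the other GFP libraries. The log2 fold change was 0.36 (SE 0.12, edgeR adjusted p = 0.0553), or 0.51 (adjusted p = 0.0096) without GFP replicate 2. DESeq2 (adjusted p = 0.0297) and limma-voom (0.0488) called Pmaip1 higher, and so did edgeR with upper-quartile factors (0.0479) and without the low-count filter (0.0339). It was not called by edgeR with DESeq2 size factors (0.058) or with library totals only (0.0505). Of all the alternative runs, 7 called Pmaip1 higher and 9 did not. Bbc3 (ENSMUSG00000002083, chr7:16308393-16318205), which encodes PUMA, a target of p53 that binds all the anti-apoptotic proteins, stood at 4.76, 4.19 and 4.74 CPM in HA-NUR77 and at 5.28, 5.49 and 5.48 CPM in GFP. Its groups did not overlap, but 66 to 96 reads per library left a 95% interval of −0.56 to 0.06 on the log2 scale around −0.25 (edgeR adjusted p = 0.2).

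**Figure D2:**
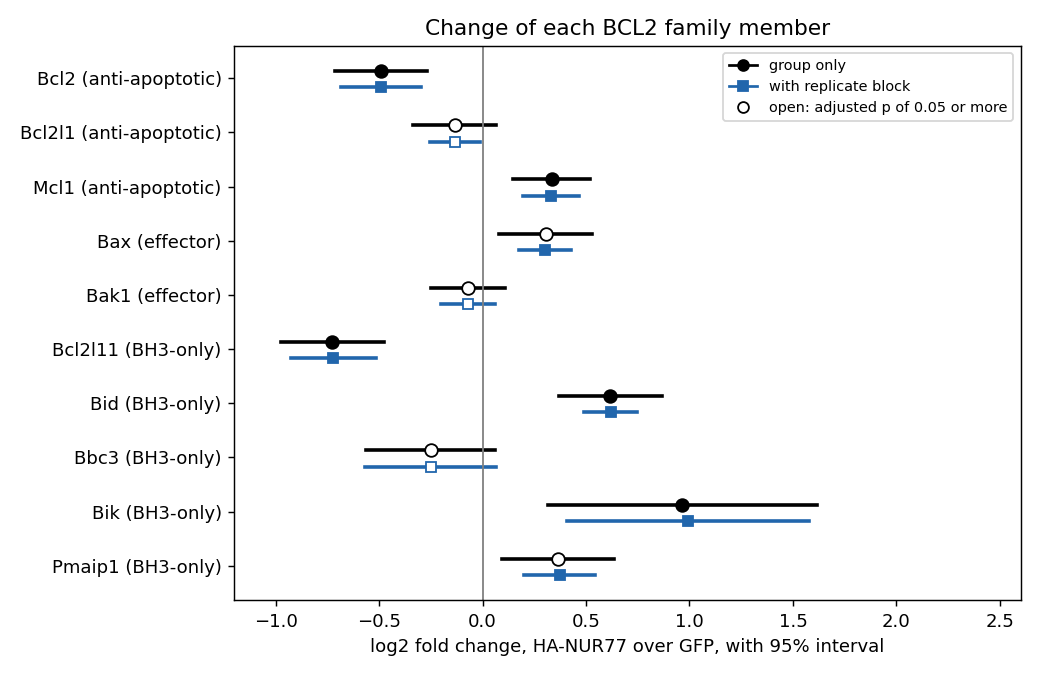
Log2 fold change of each member, HA-NUR77 over GFP (horizontal axis), with its 95% interval, from the fit on group only (black circles) and with the replicate block (blue squares); filled symbols passed an adjusted p of 0.05. The estimates hardly move between the fits, and Bax and Pmaip1 are filled only with the block.

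Set side by side per kilobase of merged exon, the members spanned a far wider range of levels than any of them did between the groups. Some pairs lay close together, such as Bax and Bak1. On this scale, CPM per kb, Mcl1 averaged 76.2 ± 6.62 in HA-NUR77 and 60.5 ± 1.19 in GFP (SD, n = 3), and 95.2% of genes tested had a lower level over all libraries. Mcl1 lay above every other member in each library. Pmaip1, Bak1 and Bax came next, at 35.6 to 52.2, 34.9 to 41.9 and 30.2 to 44.9 CPM per kb over the 6 libraries, and their ranges overlapped. Bid (15.6 to 28.5) and Bcl2l1 (14.1 to 17.8) overlapped with each other too. Bcl2l11 stood at 4.86 to 9.87, Bbc3 at 1.97 to 2.59, Bcl2 at 1.74 to 2.86 and Bik at 0.447 to 1.22 CPM per kb. The ranges of Bbc3 and Bcl2 overlapped, and Bik was below the other members in each library. Dividing by the longest annotated transcript in place of the merged exons raised Bax to a mean of 53.8 CPM per kb, above Pmaip1 (45.3) and Bak1 (39.4), and left Mcl1 highest at 68.3.

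**Figure D3:**
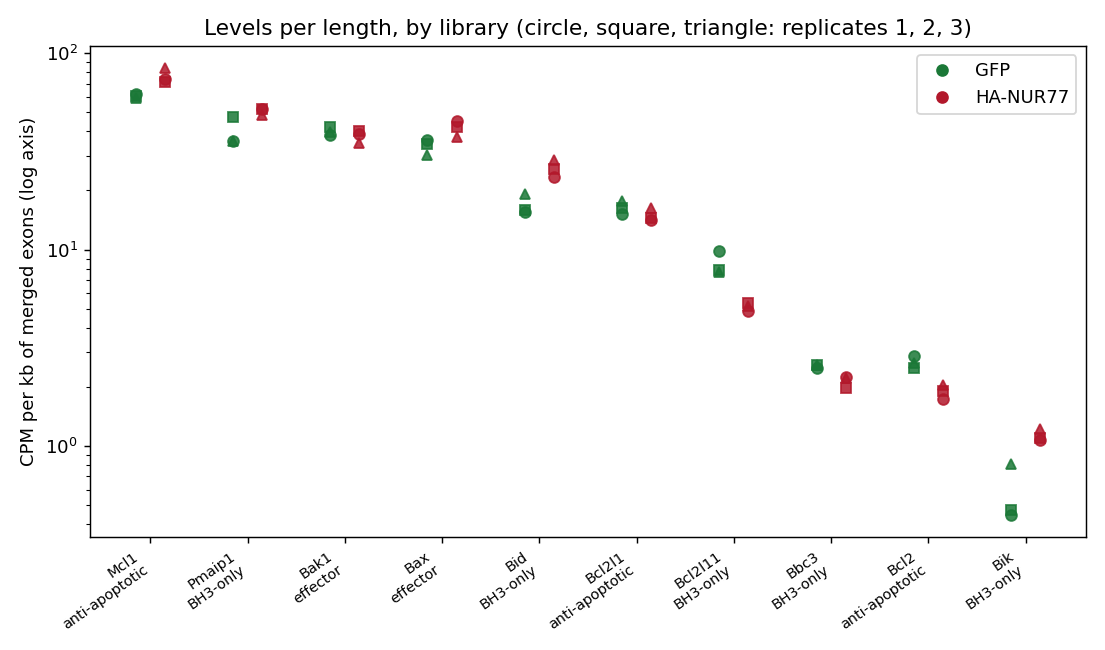
Level of each member in CPM per kb of merged exons (vertical log axis), ordered by its mean over the 6 libraries; green symbols are GFP libraries and red symbols HA-NUR77 libraries, 1 symbol per library. Mcl1 stands highest and Bik lowest in every library.

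The make-up of each role among the 10 members, from the levels per kb, is given as a description without a test. The sums leave out other expressed genes of the same roles. These include the anti-apoptotic Bcl2l2 (mean of 13.6 CPM per kb over all libraries) and the BH3-only genes Bad (11.2) and Bmf (5.73). All shares and sums here use merged exon length and depend on that choice. Mcl1 made up 82.3%, 81.3% and 82.1% of the summed anti-apoptotic level in HA-NUR77, and 77.3%, 76.4% and 74.4% in GFP. Dividing by the longest annotated transcript left the mean level of Mcl1 unchanged and raised those of Bcl2l1 and Bcl2. The share of Mcl1 is therefore smaller on that scale in both groups, though Mcl1 stayed the highest of the anti-apoptotic members. The share of Bcl2 was 1.95% to 2.17% in HA-NUR77 and 3.14% to 3.58% in GFP. The summed anti-apoptotic level was 87.9 to 102 CPM per kb in HA-NUR77 and 79.1 to 79.8 in GFP, and the summed BH3-only level was 83.9 to 85.9 and 64.1 to 74.1. Both sums were thus higher in each HA-NUR77 library. The ratio of the anti-apoptotic to the BH3-only sum overlapped between the groups, at 1.02 to 1.19 and 1.07 to 1.24. Within each replicate number that ratio was lower in HA-NUR77. Bcl2l11 made up 5.80% to 6.25% of the BH3-only sum in HA-NUR77 and 10.7% to 15.4% in GFP, and Pmaip1 made up 56.7% to 62.3% and 54.0% to 63.8%.

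Ratios between single members also differed by pair. Bcl2 over Bax, a ratio often used as a rough index of survival, took values of 0.0388, 0.0455 and 0.0546 in HA-NUR77 and 0.0789, 0.0723 and 0.0878 in GFP. Every HA-NUR77 library lay below every GFP library. Mcl1 over Bak1, in contrast, was 1.88, 1.77 and 2.40 in HA-NUR77 and 1.61, 1.44 and 1.49 in GFP, so it was higher in every HA-NUR77 library. Mcl1 over Bax overlapped, at 1.63 to 2.23 and 1.70 to 1.96. Within replicate numbers it was lower in HA-NUR77 for numbers 1 and 2 and higher for number 3. Bcl2l1 over Bax also overlapped, at 0.314, 0.346 and 0.434 in HA-NUR77 and 0.421, 0.472 and 0.588 in GFP. It was lower in HA-NUR77 within each replicate number. The direction of an anti-apoptotic to effector ratio therefore depended on the pair chosen. In bulk RNA, fewer cells with a transcript and less of it per cell cannot be told apart.

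Upstream sequence was read for the 2 genes of each direction that passed the test and have a RefSeq window, Bid, Mcl1, Bcl2l11 and Bcl2, to show what lies before the start of genes that moved in opposite directions. Windows of 250 bases before the start were found for 8 of the 10 members, 13 in all, in the RefSeq table on GRCm38.p6. They were searched on both strands for the NBRE, AAAGGTCA, which NUR77 binds as a monomer, for a core of the YY1 motif, AAGATGG, for a FOXO motif, GTAAACA, and for the GC box, GGGCGG. Capitals mark matches, and a match on the reverse strand appears as its reverse complement.
Bid (GRCm38.p6, chr6:120916825-120917074, minus strand): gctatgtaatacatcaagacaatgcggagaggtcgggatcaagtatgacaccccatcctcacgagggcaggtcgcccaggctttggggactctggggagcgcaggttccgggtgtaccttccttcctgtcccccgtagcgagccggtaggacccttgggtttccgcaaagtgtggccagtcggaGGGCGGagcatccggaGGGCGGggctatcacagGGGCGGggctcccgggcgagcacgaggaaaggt
Mcl1 (GRCm38.p6, chr3:95658471-95658720, plus strand): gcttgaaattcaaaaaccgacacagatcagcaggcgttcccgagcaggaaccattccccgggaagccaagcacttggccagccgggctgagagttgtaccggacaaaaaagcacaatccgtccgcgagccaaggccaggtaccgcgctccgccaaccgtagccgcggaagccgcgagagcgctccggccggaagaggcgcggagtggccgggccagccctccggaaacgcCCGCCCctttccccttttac
Bcl2l11 (GRCm38.p6, chr2:128125788-128126037, plus strand, the first of its windows): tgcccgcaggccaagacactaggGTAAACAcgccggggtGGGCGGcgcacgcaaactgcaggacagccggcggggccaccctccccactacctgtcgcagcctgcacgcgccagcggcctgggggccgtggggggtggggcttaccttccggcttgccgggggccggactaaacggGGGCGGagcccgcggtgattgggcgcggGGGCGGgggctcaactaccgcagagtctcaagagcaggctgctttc
Bcl2 (GRCm38.p6, chr1:106714291-106714540, minus strand): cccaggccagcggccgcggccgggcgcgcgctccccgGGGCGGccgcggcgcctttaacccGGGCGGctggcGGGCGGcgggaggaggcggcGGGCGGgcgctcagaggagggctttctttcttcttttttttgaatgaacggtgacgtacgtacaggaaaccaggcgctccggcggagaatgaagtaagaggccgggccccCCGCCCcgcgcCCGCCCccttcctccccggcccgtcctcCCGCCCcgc

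None of the 13 windows held the NBRE, which 1.34% of the 32851 windows of this length in the table held. The GC box was in 9 of the 13 windows, with 7 matches in Bcl2, 3 in Bid, 3 in the Bcl2l11 window printed and 1 in Mcl1, and in 32.7% of all windows. The FOXO motif was in 2 of the 13, the Bcl2l11 window printed and 1 of Bbc3, and in 3.17% of all windows. The YY1 core was in that of Bak1 and in 4.49% of all windows. A match of letters is not a bound site, and the windows leave out more distant sequence.

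A list of other BCL2 family genes also held the Bnip genes and Becn1, whose products are known for binding family members. Of this list, 19 genes were in the files and 11 passed the filter. By edgeR 2 rose and 0 fell, with 25.6% of all genes tested called. Those that rose were Bnip genes, and Bcl2l2, Bcl2l12, Bcl2l13, Bok, Bad and Bmf did not pass. At an unadjusted p under 0.05, edgeR had 4 genes of the whole list higher and 2 lower. At an adjusted p under 0.05, DESeq2 called 3 higher and 1 lower, and limma-voom 2 higher and 0 lower. Bnip3, a mitophagy receptor with an atypical BH3 domain, rose to 43.4 ± 0.608 CPM in HA-NUR77 (mean ± SD of 3 libraries) against 33.9 ± 0.307 in GFP (edgeR adjusted p = 0.00759). Bnip2, named for its binding to BCL2 and an adenoviral homologue, was the most abundant of this list and rose to 201 ± 17.2 CPM against 153 ± 7.93 (adjusted p = 0.0141). It missed the threshold without HA-NUR77 replicate 1 (0.0552) or GFP replicate 1 (0.0568). The list's median log2 fold change was 0.13. With the replicate block, which called 48.1% of all genes tested, 4 were higher and 1 lower, adding Bcl2l13 (0.36), Bok (0.44), an effector-like member, and Bmf (−0.49), a BH3-only gene; these were picked after their values were seen. Bcl2l2, the gene for the anti-apoptotic protein BCL-W, averaged 62.6 CPM against 58.3 CPM in GFP (log2 difference 0.10, edgeR adjusted p = 0.374). Bcl2l10 and the 4 Bcl2a1 genes had no read in any library.

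Of 25 genes of the mitochondrial death pathway, 24 were tested, 4 rose, 2 fell and 18 did not pass, with a median log2 fold change of 0.13. Its 6 calls of 24 are close to the 25.6% called over all genes tested, so the list does not stand apart by its count. The genes that rose were 3 outer-membrane channels and cytochrome c, and those that fell were 2 caspases. Vdac2, a channel that binds BAK, rose to 319 ± 9.59 CPM against 249 ± 6.85 in GFP (edgeR adjusted p = 0.00854). Vdac3 rose 1.26-fold, Cycs, which encodes cytochrome c, 1.33-fold and Vdac1, the most abundant of the list, 1.18-fold, with adjusted p of 0.0112, 0.0154 and 0.0395. Cycs has processed pseudogene copies and is uncertain to that extent, and Vdac1 missed the threshold with correction for length and GC content (adjusted p = 0.124). Casp2 fell 1.53-fold (adjusted p = 0.00399) and Casp8, whose protein cleaves BID, fell 1.41-fold (adjusted p = 0.034). Cycs missed the threshold without HA-NUR77 replicate 1 (0.0534) or GFP replicate 1 (0.0611), Casp8 without HA-NUR77 replicate 1 or 3 or GFP replicate 1 or 2 (0.0854 to 0.124), and Vdac1 without any single library (0.0506 to 0.124). Apaf1, which acts after cytochrome c release, stood at a log2 fold change of −0.07 (edgeR adjusted p = 0.704) and was chosen after its value was seen. With the block 9 were higher and 7 lower, against 48.1% called over all genes.

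Of 29 regulators and binding partners of the members, 28 were tested, 5 rose, 1 fell and 22 did not pass, with a median log2 fold change of 0.12. These 6 calls of 28 are no larger a share than the 25.6% over all genes tested. With the block 9 were higher and 6 lower, against 48.1% called over all genes. Foxo1, a transcription factor known to activate Bcl2l11, stood at 34.5, 40.6 and 31.1 CPM in HA-NUR77 and at 73.8, 76.8 and 61.8 CPM in GFP. The groups were far apart, and the fall was 2.00-fold (edgeR adjusted p = 0.002). Foxo3, another FOXO gene of the list, named after its value was seen, averaged 87.3 CPM in HA-NUR77 and 84.6 CPM in GFP (edgeR adjusted p = 0.648). A link of either gene to the fall of Bcl2l11 was not tested. Bag1, a co-chaperone that binds BCL2, stood at 464, 464 and 536 CPM in HA-NUR77 and at 235, 293 and 302 CPM in GFP, a 1.77-fold rise (adjusted p = 0.0032). Smaller rises were in Stat3 (1.17-fold), a transcription factor for Mcl1, in the kinase Akt1 (1.19-fold), named after its value was seen, and in Tpt1 (1.22-fold), whose product binds MCL1 and BCL-XL. Their edgeR adjusted p ran from 0.0434 to 0.0496, and all of Stat3, Akt1 and Tpt1 missed the threshold whichever library was left out (0.0515 to 0.15). Tpt1, the most abundant of the list, has many processed pseudogenes and is uncertain.

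Of 24 genes that p53 is known to induce, 23 were tested, 2 rose, 3 fell and 18 did not pass, with a median log2 fold change of 0.07. Their 5 calls of 23 are no larger a share than the 25.6% over all genes tested, which were also called in both directions. Trp53i11 rose 3.63-fold (edgeR adjusted p = 0.00337) and Tigar, a regulator of glycolysis, 1.34-fold (adjusted p = 0.0122). Fas, a death receptor, fell 2.18-fold (adjusted p = 0.00246), Trp53inp1 1.47-fold (adjusted p = 0.0333) and Gadd45a 1.22-fold (adjusted p = 0.047). Trp53inp1 missed the threshold without HA-NUR77 replicate 2 or 3 or GFP replicate 1 or 2 (0.0644 to 0.114), and Gadd45a without any library but HA-NUR77 replicate 3 (0.0624 to 0.134). Cdkn1a, the cell cycle inhibitor p21 and the most abundant of the list, stood at 888 ± 179 CPM in HA-NUR77 and 1029 ± 161 CPM in GFP (edgeR adjusted p = 0.384, or 0.0331 with the replicate block). With the block 9 were higher and 6 lower, against 48.1% called over all genes. Bax, Bbc3 and Pmaip1, the members that are textbook p53 targets, had log2 fold changes of 0.30, −0.25 and 0.36 in the same comparison.

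**Figure D4:**
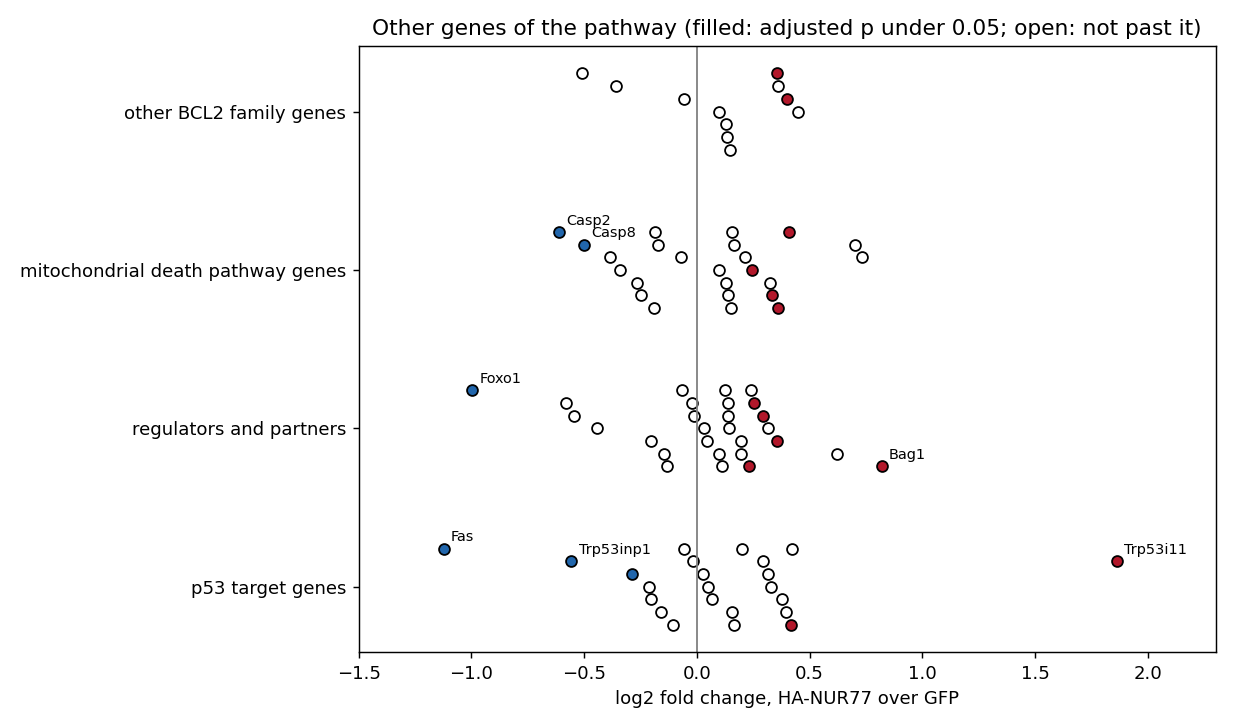
Log2 fold change, HA-NUR77 over GFP (horizontal axis), of each tested gene of the 4 lists of other family and pathway genes; filled points passed an edgeR adjusted p of 0.05, red for higher and blue for lower. Each list holds points on both sides of 0, and Foxo1, Bag1, Fas and Trp53i11 stand farthest out among those called.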

How the data were processed

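RNA-seq counts per Ensembl gene were used for 6 libraries, 3 per construct. The authors deposited raw whole-number read counts in a table for each library. TopHat2 2.1, HTSeq, DESeq2 and the build mm10 are named in the submitters' processing notes; the annotation release and strand setting are not stated there or in the labels. A stranded poly(A) kit was used on 1000 ng of RNA, with 12 PCR cycles, per the labels' protocols. Symbols were matched through GENCODE M21 (GRCm38) for 22872 of 23154 IDs.

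The test was edgeR 4.0.16's quasi-likelihood test (R 4.3.3) with TMM factors, filterByExpr (minimum count 10), robust fitting and group as the only term, with Benjamini-Hochberg adjustment over 12509 genes. SE and 95% intervals come from the same fit. Alternatives were other scaling factors and filters, DESeq2 1.42.0, limma-voom (limma 3.58.1), a correction for length and GC content, and leaving out each library. Members and lists were chosen with earlier results of these data known. Besides the 10 members, the genes named are Nr4a1 and, of each of the 4 pathway lists, up to 3 with the smallest adjusted p past the threshold in each direction and the most abundant; a gene that this rule names is not reported here. Others are said to be chosen after their values were seen. Further genes of the list of other family genes, such as Bcl2l13 and Bcl2l2, and the cell type markers are named as context.

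Both groups carry replicate numbers 1 to 3. Across genes, same-numbered libraries deviated from their group means (log2 CPM) with correlations of 0.25, 0.55 and 0.47 for numbers 1, 2 and 3. Each is over 0.1; the pairing was thus read from the data, and no label states it. Libraries of a group differed beyond sampling noise (smallest chi-square per degree of freedom 10.9). Intervals rest on 3 libraries per group.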

Additional observations from a re-analysis of the deposited data

How the results depend on the processing

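The 10 members kept their direction in every alternative run. Bcl2, Bcl2l11 and Bid were called in each run, and Bcl2l1, Bak1 and Bbc3 in none. With the replicate block, 2942 genes were higher and 3071 lower; with the block and the correction for length and GC content, 3370 and 2612. Members higher numbered 5 with the replicate block, with the block and that correction, with upper-quartile factors and without the low-count filter. The block changed no other member's call. Leaving out 1 library gave 642 to 1489 genes higher and 850 to 1572 lower, with 1 to 3 members higher and 2 lower. Other family genes, counted with the Bnip genes and Becn1, numbered 4 higher and 1 lower with the replicate block. They numbered 5 and 2 with the block and the correction, and 1 lower by DESeq2. With 1 library left out, 1 to 3 were higher and 0 to 1 lower. Death pathway genes numbered 9 higher and 7 lower with the replicate block, 10 higher with the block and the correction, and 2 to 4 higher and 1 to 3 lower with 1 library left out. Regulators numbered 9 higher and 6 lower with the replicate block, 11 and 6 with the block and the correction, 3 and 2 with DESeq2 size factors, 4 lower by DESeq2, 2 lower with the correction alone, 2 higher without the filter, and 1 to 2 higher and 1 to 2 lower with 1 library left out. The p53 targets numbered 9 higher and 6 lower with the replicate block, 10 and 5 with the block and the correction, 5 higher with the correction alone, 4 higher with upper-quartile factors or without the filter, and 2 to 3 higher and 1 to 2 lower with 1 library left out. The log2 fold change of Nr4a1 ran from −0.082 (without GFP replicate 2) to 0.44 (without GFP replicate 3). Fewer libraries leave fewer residual degrees of freedom; otherwise the cause of these shifts was not tested. Depth limits Bik and Bbc3, with under 100 reads per library.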
